A study of Homo sapiens with 6 samples.

Results

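MYC and 7 genes of the MAX partner network were followed in T47D breast cancer cells and in a tamoxifen-resistant subline derived from them. The members are MYC, MAX, MXD1, MXD3, MXD4, MXI1, MNT and MLX, taken by gene symbol from the deposited count table of 20503 genes, and all 8 were found and passed the filter on low counts. The first group, T47D, is an established human breast cancer line that the labels call ER-positive, in 3 libraries. The second, T47D-TR, is the subline, also in 3 libraries, kept in medium with 1 µM 4-hydroxytamoxifen, the active form of the anti-oestrogen tamoxifen. Cells of both groups grew in DMEM with 10% fetal bovine serum, and the protocol names the drug for the subline alone, so resistance and drug exposure cannot be told apart. The labels do not say whether T47D-TR is a single clone, nor do they state that libraries of a group are separate cultures. The p-values therefore reflect the spread among these libraries alone, which may be technical.

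MYC is a basic helix-loop-helix leucine zipper factor that binds DNA as a dimer with MAX, chiefly at the E-box CACGTG, and raises the expression of genes for growth, ribosome production and metabolism. The MXD proteins (MXD1, MXD3, MXD4 and MXI1) and MNT compete for MAX, bind the same sites and recruit the SIN3 corepressor, so the network is read as a balance between MYC-MAX and repressor-MAX dimers. MLX is a MAX-like partner that joins MXD1, MXD4 and MNT to a second branch, in which it pairs with the glucose-responsive factors MLXIP (MondoA) and MLXIPL (ChREBP). In breast cancer, MYC is a known target of oestrogen signalling and is often amplified or overexpressed.

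The libraries held 17199315 to 19867230 counts, at which 3 counts correspond to 0.153 to 0.178 CPM (counts per 1000000 counts of a library). Libraries of T47D-TR varied more than those of T47D (biological coefficients of variation 0.0799 and 0.0272), and replicate 3 lay apart from replicates 1 and 2, so values without it are given where they matter (65.3% of tested genes were called without it, and 63.0% with it). The cells were checked against markers of their label. ESR1, which encodes oestrogen receptor alpha, had 0 to 4 counts per library in both groups, against the label ER-positive, and GATA3, a luminal factor gene, lay at 1.23 ± 0.140 CPM (SD, n = 3) in T47D. Of 15 luminal markers 11 were in the table and 1, ESR1, stayed under 1 CPM in every library. Summed over the luminal markers, T47D had 2125 to 2206 and T47D-TR 2614 to 3016 CPM, mostly from KRT8 and KRT18 (1338 and 683 CPM in T47D). Of the 10 luminal markers tested 7 were called higher and 3 lower, the latter being EPCAM (38.7 to 14.7 CPM), GATA3 and ERBB3. Over 9 mesenchymal or basal markers the sums were 1932 to 1963 and 2637 to 2854 CPM. For 7 fibroblast markers they were 36.4 to 39.8 and 20.4 to 26.9 CPM. The 6 immune and endothelial markers in the table summed to 24.5 to 27.8 and 80.8 to 102.8 CPM, with PTPRC, CD14 and VWF under 1 CPM in every library. The higher sum came from CD68 (23.7 and 64.6 CPM) and PECAM1 (0.669 and 27.3 CPM), while CD8A was called lower (1.41 and 0.558 CPM). KRT14, COL1A2, DCN and PDGFRA were at 0 in all T47D libraries and no marker was at 0 in all 6, and the part of these markers in the results was not tested. In such bulk RNA, fewer cells of a type and less RNA per cell cannot be told apart.

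The E-box that the network binds was looked for in the RefSeq promoter windows (GRCh38.p14), which run from 250 bases before to 50 bases after a transcript start. Its letters, CACGTG, read the same on either strand. Of the 8 members 7 had a window, and 3 of them held the motif: MXD4, MNT and MLX. Of all 27305 genes with a window, 8.77% held it. The stretches below show these 3 sites and, for comparison, 4 classical MYC target genes described further on, of which ODC1 and SRM fell in T47D-TR and HK2 and LDHA rose. ODC1 and SRM were chosen for display after their values were seen, and for HK2 and LDHA the nearer to the start of 2 matches is shown. Each stretch is written 5′ to 3′ on the strand of the gene, with the motif in capitals and up to 20 bases on each side. The coordinates, in the same order, are chr4:2262322-2262359 (minus strand), chr17:2401228-2401273 (minus), chr17:42567030-42567075 (plus), chr2:10448016-10448061 (minus), chr1:11060192-11060237 (minus), chr2:74835001-74835046 (plus) and chr11:18394456-18394501 (plus). The motif began 238, 193, 50, 29, 199, 149 and 87 bases before the start.
MXD4: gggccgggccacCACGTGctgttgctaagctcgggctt
MNT: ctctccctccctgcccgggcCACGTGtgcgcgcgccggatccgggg
MLX: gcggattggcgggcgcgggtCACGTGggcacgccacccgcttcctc
ODC1: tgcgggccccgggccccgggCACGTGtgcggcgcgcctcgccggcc
SRM: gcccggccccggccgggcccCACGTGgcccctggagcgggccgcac
HK2: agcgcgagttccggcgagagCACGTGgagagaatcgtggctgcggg
LDHA: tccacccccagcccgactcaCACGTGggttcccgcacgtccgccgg
The 3 members with the motif did not move together: as shown next, MNT rose, MXD4 fell and MLX was not called. A match is a description of the letters in the window and not evidence of binding.

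Of the 8 genes, 3 rose (MXI1, MNT and MXD1), 3 fell (MXD4, MXD3 and MAX) and 2 were not called (MYC and MLX). A gene is called when edgeR's quasi-likelihood test across all 15961 tested genes gave a Benjamini-Hochberg adjusted p under 0.05. By that rule 63.0% of all tested genes were called, 32.5% higher and 30.5% lower, so 6 calls among 8 members is near the background. The changes were modest in size. The largest, that of MXI1, was a log2 fold change of 0.70, which exceeded in size those of 76.7% of tested genes, and that of MLX exceeded 16.2%. For 7 of the 8 members all T47D-TR libraries were on the same side of all T47D libraries, with MYC the exception, and 68.3% of tested genes were separated in this way. With 3 libraries against 3, an exact two-sided permutation test of a single gene cannot go below p = 0.10, so the calls rest on the fit across genes.

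**Figure D1:**
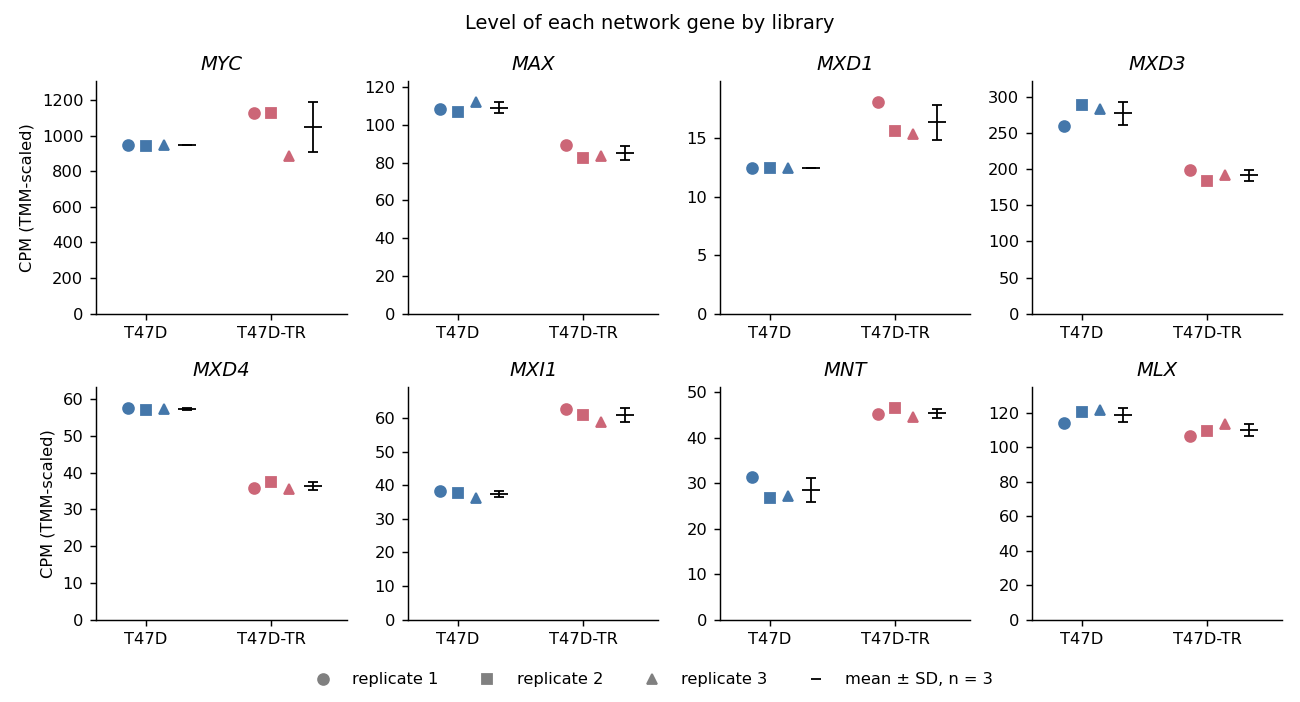
CPM (TMM-scaled; linear axes from 0) of each network gene in the 3 T47D and 3 T47D-TR libraries, with symbols for replicates and the mean ± SD beside them. MYC in T47D-TR replicate 3 (885 CPM) sits below all T47D libraries while the other T47D-TR libraries (1128 and 1129 CPM) sit above them; the groups do not overlap for the other 7 genes.

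MYC (chromosome 8, 127735434 to 127741434, plus strand, GRCh38) had the highest level of the 8 per exon length (given further on). Its level was 949.9, 945 and 948 CPM in the T47D libraries and 1128, 1129 and 885 CPM in those of T47D-TR. Replicates 1 and 2 of T47D-TR were thus above every T47D library and replicate 3 was below every one. The mean was 948 ± 2.38 CPM (SD, n = 3) in T47D and 1048 ± 141 CPM in T47D-TR, with a log2 fold change of 0.14 ± 0.12 (SE) that was not called (edgeR adjusted p = 0.104). Without T47D-TR replicate 3 the log2 fold change was 0.25, a 1.19-fold rise, and MYC was called higher (edgeR adjusted p = 6.58e-09). Without T47D-TR replicate 1 or 2 it was 0.09 in either case (edgeR adjusted p = 0.363 and 0.329). In replicate 3, MYC stood at 78.4% of the mean of replicates 1 and 2, or -0.35 on the log2 scale, and 18.2% of tested genes deviated there by as much or more in either direction. By mean level MYC ranked 77th among all genes of the table in T47D and 65th in T47D-TR. Counting error was at most 0.818% in any library at these counts of 14946 to 22146, below the 13.4% coefficient of variation of the T47D-TR libraries. The 0.251% of the T47D libraries was below even the smallest counting error, 0.672%. For MXD1 and MXD4 too the T47D libraries varied less (0.251% and 0.374%) than counting error (at least 5.35% and 2.99%), so their SDs and SEs are narrower than counting allows.

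MAX, the obligate partner of MYC and a partner of the repressors (chromosome 14, 65006174 to 65102695, minus strand), fell. It had 108, 107 and 112 CPM in T47D and 89.4, 82.5 and 83.6 CPM in T47D-TR, with no overlap between the groups. The means were 109 ± 2.74 and 85.2 ± 3.75 CPM, and the log2 fold change was -0.36 ± 0.04 (edgeR adjusted p = 4.76e-05). Replicate 3 of T47D-TR did not stand apart here, at 97.2% of the mean of the other T47D-TR libraries.

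MXI1 and MNT were the repressor genes with the largest rises. MXI1 (chromosome 10, 110207605 to 110287365, plus strand), an MXD family member also called MXD2, had 38.2, 37.7 and 36.2 CPM in T47D and 62.8, 60.9 and 58.8 CPM in T47D-TR. Every T47D-TR library was above every T47D library, and the log2 fold change was 0.70 ± 0.04, or 1.63-fold (edgeR adjusted p = 3.21e-07). MNT, which encodes the most widely expressed MAX-binding repressor (chromosome 17, 2384060 to 2401118, minus strand), had 31.4, 26.8 and 27.2 CPM in T47D and 45.1, 46.5 and 44.6 CPM in T47D-TR. Its groups did not overlap either, with T47D replicate 1 the highest of its group, and the log2 fold change was 0.67 ± 0.08 (edgeR adjusted p = 3.85e-06). MXD1, a gene linked to differentiation and growth arrest (chromosome 2, 69897688 to 69942945, plus strand), rose less and had the lowest level of the 8 per exon length. Its CPM values were 12.5, 12.5 and 12.4 in T47D and 18.1, 15.7 and 15.4 in T47D-TR, the highest in replicate 1. The log2 fold change was 0.40 ± 0.07 (edgeR adjusted p = 0.00218), and with only 232 to 349 counts per library its counting error reached 6.57%.

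The other MXD genes went the opposite way. MXD4 (chromosome 4, 2247432 to 2262294, minus strand) had 57.5, 57.1 and 57.3 CPM in T47D and 35.8, 37.5 and 35.6 CPM in T47D-TR, well apart. Its log2 fold change of -0.66 ± 0.02 was the largest fall (edgeR adjusted p = 4.61e-07). MXD3, an MXD gene described in proliferating cells (chromosome 5, 177301461 to 177312757, minus strand), had the highest level of the repressor genes per exon length. It had 259.7, 289 and 284 CPM in T47D and 199, 184 and 193 CPM in T47D-TR, and the groups did not overlap. The log2 fold change was -0.53 ± 0.06 (edgeR adjusted p = 1.67e-06). In GENCODE v29, exons of MXD3 share 1158 bases with PRELID1 on the opposite strand and 926 bases with RAB24 on the same strand. PRELID1, a mitochondrial lipid transfer gene, went from 407 ± 10.2 to 288 ± 4.75 CPM with a log2 fold change of -0.50 ± 0.02 (edgeR adjusted p = 3.15e-07), close to that of MXD3, and RAB24 had 10.02 ± 0.141 and 11.7 ± 0.623 CPM (adjusted p = 0.057). The kit was directional, but the sources used here do not give the strand setting of the counting, so whether reads of MXD3 and PRELID1 were told apart is not known.

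MLX, the partner that opens the MondoA and ChREBP branch (chromosome 17, 42567068 to 42573239, plus strand), was not called. It had 114, 121 and 121 CPM in T47D and 107, 109.5 and 113.5 CPM in T47D-TR, where the groups just failed to overlap. The log2 fold change was -0.11 ± 0.04 (edgeR adjusted p = 0.0611). Some other settings called it lower: library size alone (-0.15, adjusted p = 0.0157), upper-quartile scaling (-0.13, 0.0372), and leaving out T47D replicate 1 (-0.14, 0.045) or T47D-TR replicate 3 (-0.13, 0.00962). MLX shares 770 exonic bases with PSMC3IP on the opposite strand, which had 51.5 ± 1.58 and 48.1 ± 1.51 CPM (adjusted p = 0.135). Among the remaining members, MXD1 shares 237 exonic bases with SNRNP27 on the same strand (36.8 CPM in each group, adjusted p = 0.994), and MXD4 holds the microRNA gene MIR4800 (0.422 and 0.325 CPM, not tested). MAX overlaps FNTB and the readthrough gene CHURC1-FNTB on the opposite strand without shared exonic bases. FNTB had 11.9 ± 1.11 and 7.04 ± 0.891 CPM in T47D and T47D-TR (-0.76 on the log2 scale, edgeR adjusted p = 0.000136) and CHURC1-FNTB 12.8 ± 0.940 and 8.96 ± 0.561 CPM (-0.52, adjusted p = 0.000674). MNT, MAX and MXI1 also share 1065, 184 and 205 exonic bases with antisense genes not analysed here.

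**Figure D2:**
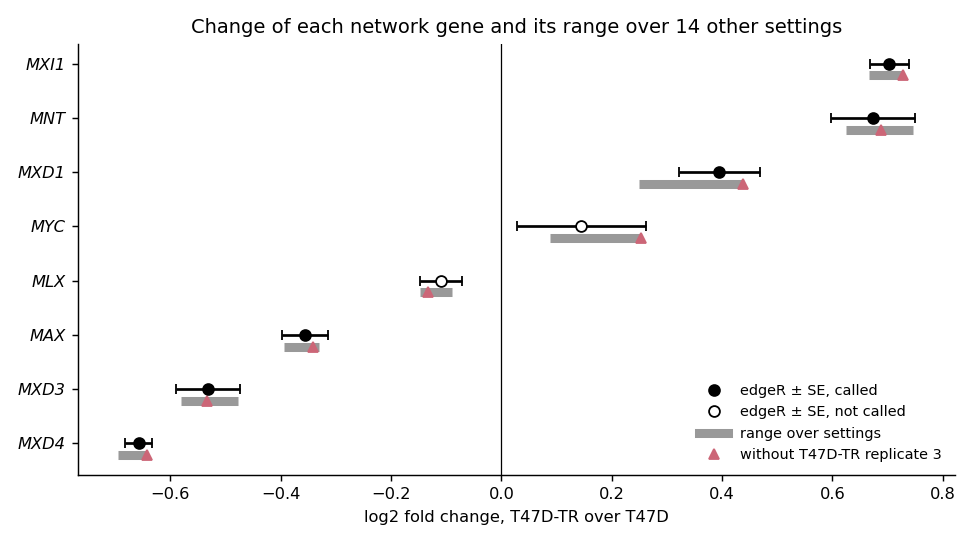
Log2 fold change of T47D-TR over T47D for each network gene (points with SE; filled, called by edgeR; open, not called), with the range over 14 other settings in grey and the value without T47D-TR replicate 3 as a triangle. MXI1, MNT and MXD1 lie above 0 and MAX, MXD3 and MXD4 below 0 in every setting drawn, and the value of MYC without replicate 3 (0.25) is the upper end of its range.

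Levels were compared between genes only after division by the merged length of their exons, in CPM per kilobase. In T47D the order was MYC (316 ± 0.793), MXD3 (84.3 ± 4.71), MLX (45.8 ± 1.55), MAX (26.6 ± 0.667), MXD4 (14.1 ± 0.0529), MXI1 (9.23 ± 0.253), MNT (5.70 ± 0.517) and MXD1 (2.22 ± 0.00556). No neighbours in that order overlapped between libraries. In T47D-TR the order began alike, with MYC at 349 ± 46.9, MXD3 at 58.3 ± 2.32, MLX at 42.5 ± 1.30 and MAX at 20.8 ± 0.914. MXI1 (15.02 ± 0.492) and MNT (9.08 ± 0.193) then stood ahead of MXD4 (8.95 ± 0.264), and MXD1 (2.92 ± 0.265) was last. MNT and MXD4 did not differ beyond their spread there, at 8.93 to 9.30 and 8.77 to 9.25. The order depends on the transcripts that make up the length, since GENCODE v29 lists 1 protein-coding transcript for MXD4 and 13 for MAX in its basic set, and the counts do not separate isoforms. As given above, MXD3, MLX, MNT, MAX and MXI1 share exonic bases with genes on the opposite strand. The counting strand is not known, so their places in the order carry that doubt.

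Reads of each gene per MAX read in the same library do not depend on the scaling between libraries. This ratio was chosen after the counts were seen and is given without a test; its size depends on gene length, so only its change between groups is read. MYC had 8.76, 8.86 and 8.46 reads per MAX read in T47D and 12.6, 13.7 and 10.6 in T47D-TR. The ratio of MYC to MAX was higher in every T47D-TR library than in any T47D library, 1.42-fold on average. MAX itself stood at 0.781 of its T47D level, which raises all 7 ratios alike. Per MLX read, MYC had 8.33, 7.84 and 7.81 reads in T47D and 10.6, 10.3 and 7.80 in T47D-TR, where replicate 3 was not higher. Relative to MAX, MXI1 was 2.08-fold higher, at 0.343 ± 0.0171 and 0.715 ± 0.0209, and MNT 2.04-fold higher, at 0.261 ± 0.0253 and 0.534 ± 0.0295. MXD1 went from 0.114 ± 0.00309 to 0.192 ± 0.00924 and MLX from 1.09 ± 0.0391 to 1.29 ± 0.0871. MXD4 and MXD3 were lower relative to MAX as well, at 0.526 ± 0.0126 and 0.427 ± 0.0276 for MXD4 and 2.54 ± 0.156 and 2.25 ± 0.0430 for MXD3. Groups did not overlap for any of the 7 ratios. MAX, which all 7 share, did not overlap between the groups by itself. The share of all tested genes separated in this way per MAX read was not computed, so this count is not read as a result. Set against MYC itself, MNT had 0.0331, 0.0284 and 0.0287 reads per MYC read in T47D and 0.0400, 0.0411 and 0.0504 in T47D-TR, the highest in replicate 3, where MYC was lowest.

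**Figure D3:**
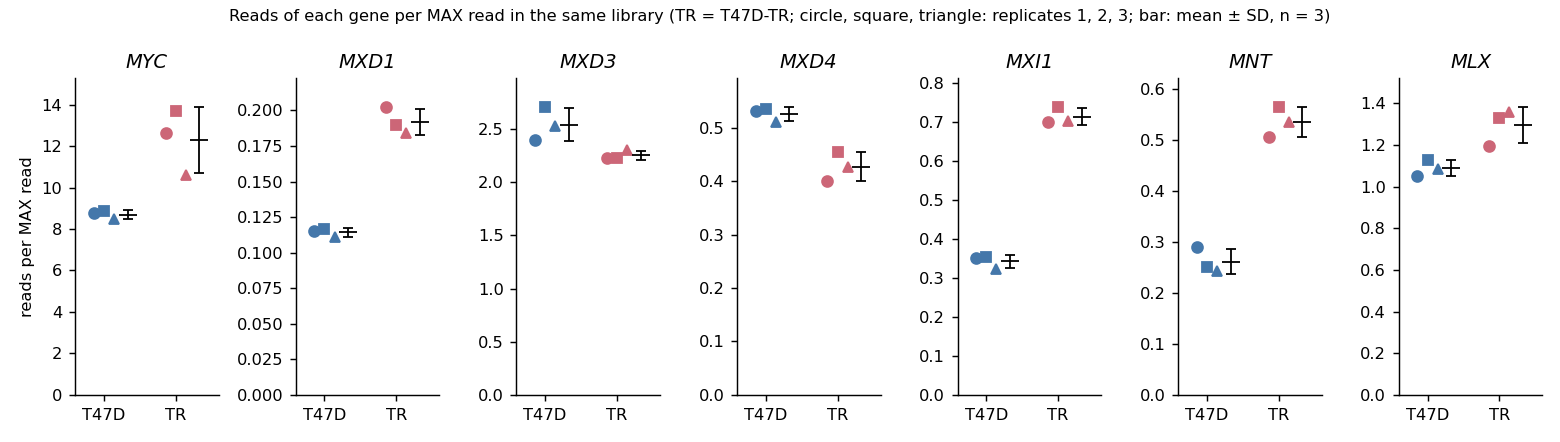
Reads of each of the other 7 network genes per MAX read in the same library (linear axes from 0; one symbol per replicate, mean ± SD beside them). MYC, MXD1, MXI1, MNT and MLX are higher and MXD3 and MXD4 lower relative to MAX in all T47D-TR libraries than in all T47D libraries.

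The authors' deposited table gives the same 6 members a false discovery rate under 0.05. For MYC the authors' deposited table has a log2 fold change of 0.14 with a false discovery rate of 0.402, and for MLX -0.12 with 0.167.

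The genes whose values across the 6 libraries lay nearest to those of MYC were CHSY1, NR2C1 and ATXN7. Nearness is the root mean square difference of log2 CPM after each gene's own mean is subtracted, over 6 libraries and 9828 candidate genes, and it was 0.01, 0.02 and 0.02. CHSY1, a chondroitin synthase gene, had 44.4, 43.8 and 43.9 CPM in T47D and 52.0, 52.6 and 40.03 CPM in T47D-TR, lowest in replicate 3. That pattern is what chose these 3 genes. Nearest to MXI1, the member with the largest change, were PXDN, WHSC1L1 and NBEAL1, at 0.02, 0.02 and 0.03, with log2 fold changes of 0.69, 0.70 and 0.67.

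Of the relatives of MYC and MLX outside the 8, 4 of 5 were in the table. MGA, which encodes a very large MAX partner with repressor function, rose on the log2 scale by 0.68 ± 0.09, with means of 113 ± 9.38 and 182 ± 11.0 CPM (edgeR adjusted p = 1.4e-06). MLXIP, the MondoA gene, fell from 133 ± 7.09 to 84.1 ± 4.07 CPM (-0.66 ± 0.06, edgeR adjusted p = 5.07e-07). MLXIPL, the ChREBP gene, was low at 4.67 ± 0.135 and 5.47 ± 0.361 CPM (adjusted p = 0.14), and its direction turned with voom and quantile normalization. MYCL, an MYC paralogue, had 17, 31 and 27 counts in T47D and 42, 48 and 25 in T47D-TR and was not called (adjusted p = 0.0577). Without T47D-TR replicate 3 it was called higher, at a log2 fold change of 0.81 (edgeR adjusted p = 0.00785). MYCN was not analysed here.

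Classical genes induced by MYC were mostly lower in T47D-TR, while MYC itself was not called. Of 36 listed genes, all tested, 32 fell and 4 rose, with a median log2 fold change of -0.50, where 30.5% of all tested genes fell and their median was 0.00. Genes with a mean of at least 50 CPM, as most of these targets have, fell in 44.8% of cases. This list, like the others, was chosen with earlier results of these data known. The shares are therefore a description and not a test. Among the targets were nucleolar and ribosome-production genes such as MRTO4, from 199 ± 4.83 to 95.7 ± 7.09 CPM (-1.06 ± 0.06, edgeR adjusted p = 8.96e-09), and NCL, the nucleolin gene, from 1852 ± 66.6 to 1297 ± 27.1 CPM (-0.51, edgeR adjusted p = 1.4e-07). The polyamine enzyme genes ODC1 and SRM, whose E-boxes are shown above, were at 676 ± 15.5 and 206 ± 2.97 CPM in T47D and fell to 392 ± 16.0 and 103.5 ± 5.42 CPM (-0.79 and -0.99). TERT, the telomerase gene, was low and fell from 2.78 ± 0.734 to 0.890 ± 0.246 CPM (-1.63 ± 0.30, edgeR adjusted p = 0.000276). NCL, ODC1, SRM, SHMT2 and MAT2A were named after their values were seen. The genes that rose were HK2 and LDHA, of glycolysis, with SHMT2 and MAT2A, of one-carbon metabolism. HK2 went from 82.1 ± 1.82 to 119.5 ± 13.2 CPM (0.54 ± 0.10, edgeR adjusted p = 2.47e-05) and LDHA from 1732 ± 32.1 to 2299 ± 163 CPM (0.41 ± 0.06, edgeR adjusted p = 8.14e-06), and SHMT2 and MAT2A had log2 fold changes of 0.22 and 0.17. Of the 30 listed genes with a promoter window, 19 (63.3%) held CACGTG, against 8.77% of all genes. Those that fell and those that rose are both among them. The list was made of known MYC targets and the 8.77% was not matched for level, so the difference describes the list and was not tested.

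Values by library are given as a description. Relative to the T47D mean, MYC was at 0.25, 0.25 and -0.10 on the log2 scale in T47D-TR replicates 1, 2 and 3. The median of the 36 induced targets was -0.47, -0.52 and -0.48 in the same libraries. Without T47D-TR replicate 3, again 32 fell and 4 rose.

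**Figure D4:**
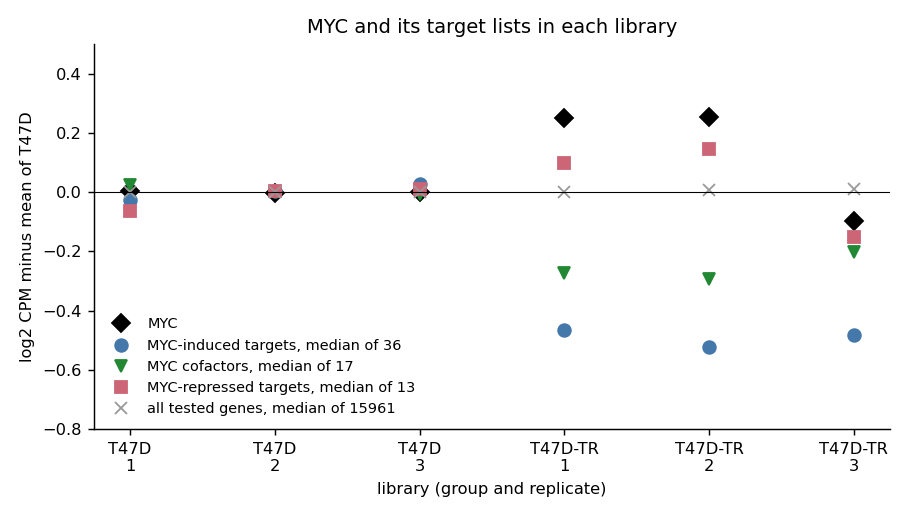
Log2 CPM in each library minus the gene's mean in T47D, for MYC and for the medians of its induced targets, its cofactors, its repressed targets and all tested genes. MYC is at 0.25, 0.25 and -0.10 in the T47D-TR libraries while the induced targets stay between -0.47 and -0.52.

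Genes that MYC represses were called in both directions. Of 14 listed, 13 were tested, with 5 higher, 5 lower, 3 uncalled and a median of 0.12. Their 76.9% called compares with 63.0% of all tested genes. CDKN2B, the p15 cell cycle inhibitor gene, rose from 30.1 ± 1.21 to 229.9 ± 27.4 CPM (2.94 ± 0.10, edgeR adjusted p = 3.76e-11), and NDRG1, a stress and differentiation gene, from 57.6 ± 3.77 to 424 ± 116 CPM (2.88 ± 0.26, edgeR adjusted p = 1.74e-08). CDKN2B overlaps an antisense gene, so its reads carry the same doubt on strand as those of MXD3. GAS1 fell from 2.38 ± 0.210 to 1.17 ± 0.0695 CPM and NDRG2 from 8.98 ± 0.141 to 4.47 ± 0.234 CPM. Named after their values were seen, CDKN1A (2.01), GADD45A (1.38) and CLU (1.29) were the others called higher, and THBS1 (-0.96), CCND1 (-0.61) and CDKN1B (-0.34) the others called lower.

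**Figure D5:**
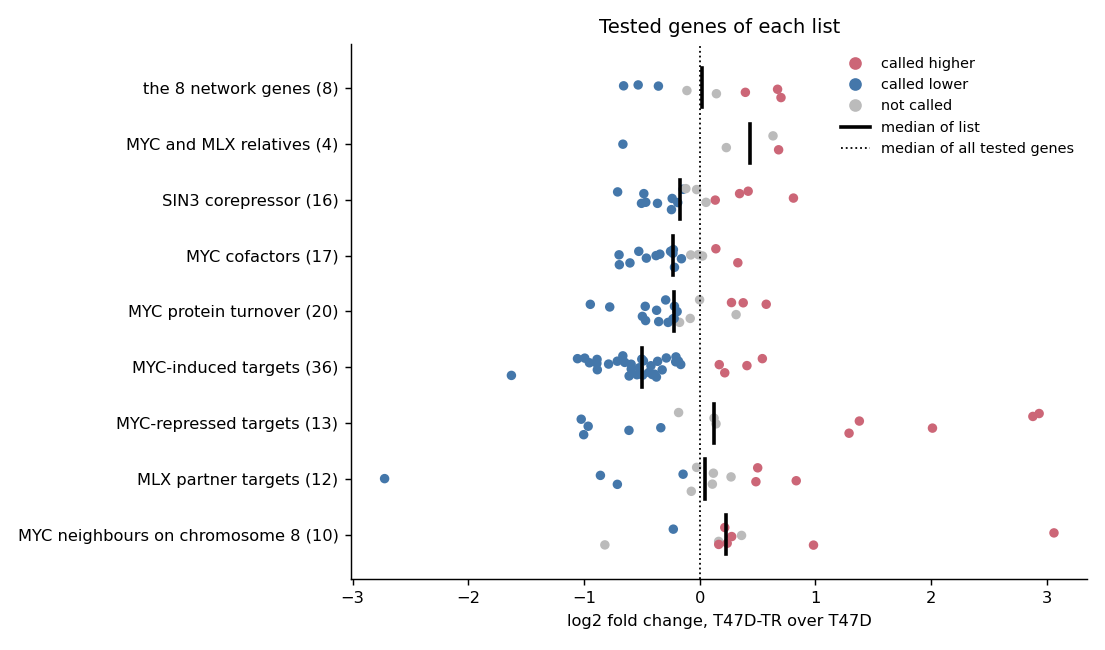
Log2 fold change of every tested gene of each list (one point per gene, number tested in brackets; vertical jitter has no meaning), with the list's median as a bar and that of all tested genes dotted. The induced targets of MYC lie mostly below 0 (median -0.50), while the 8 network genes lie on both sides of it (median 0.02).

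The proteins through which the network acts are given by list. Of 16 genes of the SIN3 corepressor complex, which the MXD proteins and MNT recruit, 4 rose and 9 fell (median -0.17). The 81.2% called compares with 63.0% of all tested genes and 76.4% of those with a mean of at least 50 CPM. The scaffold genes SIN3A and SIN3B, named after their values were seen, had log2 fold changes of 0.06, not called, and -0.19, called lower. ARID4A rose from 29.1 ± 2.07 to 50.99 ± 7.16 CPM and ING2 from 10.4 ± 0.537 to 13.9 ± 1.88 CPM, a call lost with voom and quantile normalization (adjusted p = 0.0868). ARID4B (0.34) and SAP130 (0.13, edgeR adjusted p = 0.0416), named after their values were seen, were the others called higher. The number of SIN3 genes called higher was 3 to 4 when 1 library was left out and 2 to 4 in the other settings. BRMS1L and SAP18 had the lowest values, with log2 fold changes of -0.71 and -0.50, both called. Of 17 listed MYC cofactors, among them factors that open chromatin or release paused polymerase, 2 rose and 12 fell (median -0.23). Thus 82.4% were called, against the same 63.0% and 76.4%. The shares called lower were 30.5% of all tested genes and 44.8% of those with a mean of at least 50 CPM. HCFC1 and SMARCB1, a host cell factor gene and a SWI/SNF subunit gene, fell by 0.69 and 0.70 on the log2 scale, from 312 ± 16.3 to 193 ± 9.36 CPM and from 128 ± 3.44 to 79.0 ± 2.74 CPM. CDK9, the kinase of pause release, rose by 0.33. EP300, the other gene called higher there, had 0.14 ± 0.07 (adjusted p = 0.0481), and 7 of 14 other settings did not call it (adjusted p up to 0.196).

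Genes that set the stability of MYC protein, which these data do not measure, were called in 16 of 20 cases, 3 higher and 13 lower (median -0.23). That is 80.0%, against 63.0% of all tested genes, of which 30.5% were lower and 32.5% higher. Among all genes of at least 50 CPM it was 76.4%, with 44.8% lower and 31.6% higher. The list also holds genes under 50 CPM, among them FBXW7 (18.5 CPM in each group). HUWE1, a ubiquitin ligase gene, rose from 511 ± 25.3 to 761 ± 34.2 CPM (0.58 ± 0.06, edgeR adjusted p = 4.04e-07) and the kinase gene GSK3B from 152 ± 4.31 to 197 ± 6.57 CPM. The remaining gene called higher was USP28 (0.28), which encodes a deubiquitinase and was named after its value was seen. SKP2, another ligase gene, fell from 161 ± 2.02 to 83.5 ± 8.22 CPM (-0.95 ± 0.08, edgeR adjusted p = 7.14e-08) and the mitotic kinase gene PLK1 from 271 ± 5.62 to 158 ± 19.0 CPM. FBXW7, the best known ligase for MYC and named after its value was seen, had a log2 fold change of -0.0007 and was not called.

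Targets of the MLX partners were mixed: of 14 listed, 12 were tested, of which 3 rose and 4 fell (median 0.04). The 58.3% called is below the 63.0% of all tested genes. ARRDC4, an arrestin-domain gene under MondoA, fell from 4.92 ± 0.247 to 0.755 ± 0.373 CPM (-2.72 ± 0.34, edgeR adjusted p = 1.38e-06). TXNIP, another well-known MondoA target, named after its value was seen, went from 14.9 ± 2.04 to 20.9 ± 5.09 CPM (0.49, edgeR adjusted p = 0.0137), the opposite direction. ACLY, a lipogenic enzyme gene, fell by 0.86 on the log2 scale, and KLF10 and ACACB rose by 0.83 and 0.50. FASN (-0.71) and SCD (-0.14), lipid synthesis genes named after their values were seen, were the others called lower.

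Genes near MYC on the same chromosome arm were called, in either direction, about as often as all genes. Of 16 listed, 10 were tested, of which 6 rose and 1 fell (median 0.23). The 70.0% called compares with 63.0% of all tested genes (32.5% higher and 30.5% lower). The number of neighbours called higher was 4 when replicate 1 or 3 of T47D or replicate 1 of T47D-TR was left out. PVT1, whose start lies 53.1 kb beyond MYC, had 27.3 ± 2.54 and 32.1 ± 1.26 CPM (0.24, edgeR adjusted p = 0.0162). CCAT1 rose by 0.28, and TRIB1, a pseudokinase gene, from 31.5 ± 3.24 to 62.4 ± 2.71 CPM. FAM84B (now LRATD2), at a distance of 1177 kb, had 11.5 ± 0.669 CPM in T47D and 95.6 ± 22.3 CPM in T47D-TR and rose by 3.06 ± 0.21 on the log2 scale (edgeR adjusted p = 6.16e-09), and FAM49B fell by 0.23 on the log2 scale. PVT1 and CCAT1 were named after their values were seen.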

How the data were processed

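Poly(A) RNA of 6 libraries was measured, 3 of T47D and 3 of T47D-TR, grouped by their titles. Per the submitters' processing notes, HISAT2 2.1.0, DESeq and the build GRCh38 were used. The kit was directional, per the labels' protocols. The counter, annotation and counting strand were not given in the sources used here. Per the file headers and values, the deposited table has whole-number counts per gene. Beside them the authors deposited a normalized signal, the mean per group of counts divided by size factors, their ratio as a fold change, its log2 value and p-values with a false discovery rate. No per-sample column was left unused (0).

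Counts were filtered with filterByExpr (minimum count 10, minimum total 15), scaled with TMM and tested with edgeR 4.0.16 (glmQLFit, glmQLFTest) in R 4.3.3, T47D-TR against T47D, two-sided, adjusted over all tested genes. CPM use TMM-adjusted library sizes of the tested genes. SE combine the variances of log2 CPM (prior count 2) within each group, which the prior narrows for low counts. Alternatives used DESeq2 1.42.0, limma 3.58.1, other scalings and filters, a replicate block, and each library left out. The steps were run on simulated data with the same spread in both groups and few changed genes. These data differ on both points, so that run does not vouch for the calls here. Positions, exon overlaps and lengths come from GENCODE v29 (GRCh38). List genes were matched by symbol, or by the Entrez number in the table. Counting errors cover counting only, since PCR copies are not independent molecules.

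The members and lists were chosen with earlier results of these data known. Named were the 8 members, genes overlapping them, the 3 nearest to MYC and to the most changed other member (mean CPM at least 10), all relatives, and up to 2 called genes at each end of each list. Other genes are marked as named after their values were seen, apart from the cell markers.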

Additional observations from a re-analysis of the deposited data

How the results depend on the processing

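Over 14 alternatives the count of called genes was 9047 to 10665 when 1 library was left out and 8010 to 10514 otherwise. The members called numbered 3 to 4 higher and 3 to 4 lower, and MXI1, MNT, MXD1, MAX, MXD3 and MXD4 kept direction and call in each one. MYC was called in 1 alternative, without T47D-TR replicate 3 (0.25), and was lowest without T47D-TR replicate 1 (0.088). The MYC-induced targets called lower numbered 31 to 32. Quantile normalization with voom shifted all tested genes by a median of -0.11 on the log2 scale. With it 2 SIN3 genes were called higher and 2 chromosome neighbours lower, and MLXIPL turned to -0.0113. MYC cofactors called higher fell to 1 with DESeq2, library size alone, upper-quartile scaling or the replicate block, and MLX partner targets called higher rose to 5 at a mean CPM of at least 5. Leaving out a library gave 1 to 2 higher among the relatives (2 without T47D-TR replicate 3), 1 to 2 among the cofactors (1 without replicate 2 or 3 of T47D or replicate 3 of T47D-TR), and 1 to 2 neighbours lower (2 without T47D-TR replicate 1). SNRNP27, at 0.00, turned sign with DESeq2 (-0.0027), library size alone (-0.0363), upper-quartile scaling (-0.0166), voom (-0.0472), and without T47D replicate 1 (-0.0592) or T47D-TR replicate 2 (-0.0189), and reached 0.0329 without T47D replicate 3. The cause of these changes was not tested. Same-numbered libraries did not deviate together (r = -0.00512, -0.0208 and -0.0138 across genes), so the numbers were not taken as pairs. With the replicate block 2 neighbours were called lower, and the calls of all 8 members stayed as they were. Of 43 other named genes tested, 33 kept direction and side of the threshold throughout. Counting error per library reached 6.57% for MXD1 and 0.818% for MYC.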
